A study of Homo sapiens with 11 samples.

Results

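The genes described here are 33 genes of hypoxia and glycolysis, taken by gene symbol from the 35303 genes of the count file, and all 33 symbols were found. They comprise glucose transporters, glycolytic enzymes and their regulators, HIF1A itself, and genes that hypoxia is known to induce. They were measured by RNA-seq in LX-2, an immortalised human cell line derived from hepatic stellate cells, which become collagen-producing myofibroblasts in the injured liver. The HIV-1+LTA group received HIV-1 BaL at a multiplicity of infection of 0.1 together with LTA, the lipoteichoic acid that Gram-positive bacteria carry in their walls, at 1 ug per ml, the HIV-1 group received the same virus alone, and the PBS group received buffer. All groups were taken at 24 h and had 3 libraries each, 1 from each of 3 batches named in the labels. No library had LTA without virus. The labels do not say that the batches were separate cultures, so the spread that the p-values measure may be technical. All libraries came from 1 line, and the labels give no oxygen condition other than the shared culture.

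Glycolysis splits glucose into pyruvate, and lactate dehydrogenase turns pyruvate into lactate when it is not passed to the mitochondria. When oxygen is short, prolyl hydroxylases no longer mark the subunit HIF-1alpha for destruction, and HIF-1 then binds short hypoxia response elements near genes for glucose uptake, glycolysis, angiogenesis, mitophagy and collagen hydroxylation. Since HIF-1alpha is set mainly through the stability of the protein, the level of HIF1A mRNA is no measure of its activity. In stellate cells glycolysis is known to accompany activation, and hypoxia is known to raise angiogenic and matrix genes.

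The libraries held 50628144 to 90599780 counts. Under every treatment, batch 3 differed from batches 1 and 2: 71.2% of the 16117 genes tested differed between batch 3 and batches 1 and 2 at an adjusted p below 0.05 in the edgeR quasi-likelihood test. Their TMM scaling factors ran from 0.899 to 0.958, against 1.01 to 1.08 in batches 1 and 2. Of 20 stellate cell markers 12 had at least 1 CPM (TMM-scaled counts relative to the depth of the library) in every library, among them COL1A1 at 794 CPM or more, while LRAT, which esterifies retinol for storage, had at most 0.0350 CPM. The 20 markers summed to 7992 to 9870 CPM in batch 3, against 4677 to 6433 CPM in batches 1 and 2, a sum set mostly by the abundant ones. None of 8 hepatocyte, 8 macrophage and 6 endothelial markers reached 1 CPM in every library, and each list summed to at most 2.70 CPM, with CD5L, VSIG4 and CLEC4G at 0 in every library. The 4 cholangiocyte markers summed to 23.3 to 38.7 CPM, mostly SOX9. The 4 T cell markers summed to 1.38 to 2.58 CPM in batch 3, against 13.0 to 18.7 CPM in batches 1 and 2, nearly all of it CD4, with CD3E at no more than 0.0564 CPM and CD3D at no more than 0.0525 CPM. The part of these markers in the results was not tested. In bulk samples, fewer cells of a type and less RNA per cell cannot be told apart.

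The 33 genes together took 1.08% to 1.19% of all counts in the 9 libraries, and the 15 glycolytic enzymes among them 0.938% to 1.05%. Per length of transcript, on the RPKM scale (CPM per kilobase of the canonical transcript), GAPDH was the highest at 2853 ± 248 RPKM (SD over 9 libraries). ENO1, the main enolase, followed at 889 ± 195 RPKM, PKM, the pyruvate kinase of most dividing cells, at 883 ± 149 RPKM, and LDHA, which makes lactate, at 365 ± 33.8 RPKM. The order of ENO1 and PKM depended on the batch. In batch 3 ENO1 had 1098 to 1166.5 RPKM and PKM 642 to 787 RPKM. In batches 1 and 2 ENO1 had 663 to 820 RPKM and PKM 885 to 1023 RPKM. HIF1A stood sixth in this order at 120 ± 11.8 RPKM. At the low end were EGLN3, a HIF prolyl hydroxylase, at 0.113 ± 0.0457 RPKM, CA12, a membrane carbonic anhydrase, at 0.104 ± 0.0220 RPKM, and CA9. CA9, another membrane carbonic anhydrase and a widely used marker of hypoxic cells, had 3, 4 and 2 counts in the HIV-1+LTA libraries of batches 1, 2 and 3, 0, 1 and 9 counts in the HIV-1 libraries, and 1, 2 and 0 counts in the PBS libraries. CA9 was near the floor at this depth: 3 counts, the limit a count of 0 allows, correspond to 0.0525 CPM in the HIV-1 library of batch 1 and 0.0600 CPM in the PBS library of batch 3. The 9 counts of the HIV-1 library of batch 3, 0.156 CPM, lay above that PBS limit, a value that rests on 1 library. CA9 did not pass the filter on low counts, so 32 of the 33 genes were tested.

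**Figure D1:**
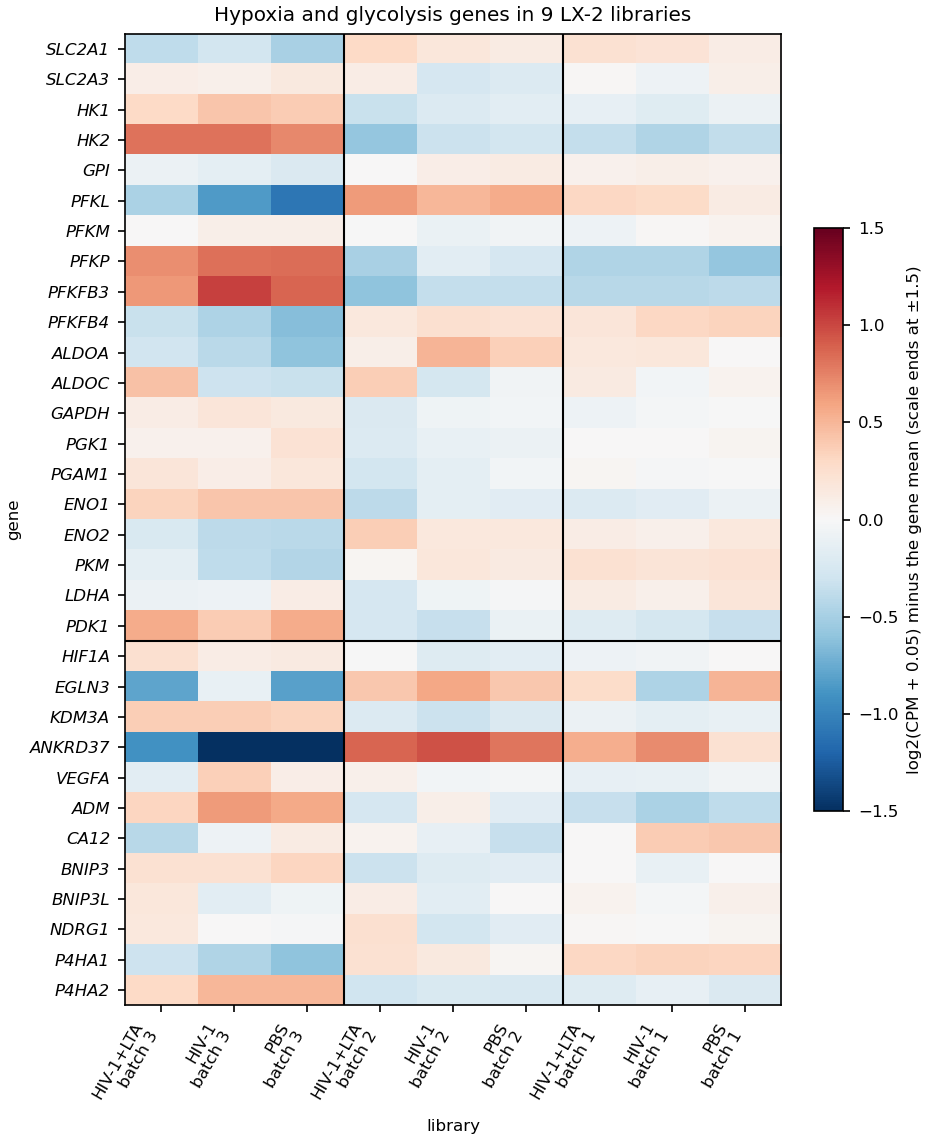
Level of the 32 tested genes (rows, enzymes and transporters above the line, HIF1A and hypoxia-induced genes below it) in the 9 libraries (columns, batch 3 at the left), as log2(CPM + 0.05) minus the mean of the gene over the 9 libraries. The colours change mostly between batch 3 and the other batches, with PFKFB3, PFKP and HK2 high and ANKRD37 and PFKL low in batch 3, while ALDOC is high in the HIV-1+LTA libraries of batches 3 and 2.

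Differences between HIV-1+LTA and HIV-1 libraries were small in these genes. ALDOC, the aldolase isozyme known mainly from brain, was 1.43-fold higher in HIV-1+LTA than in HIV-1 libraries. BNIP3L, a mitochondrial receptor for mitophagy also known as NIX, was 1.17-fold higher, and so was NDRG1, a stress and differentiation gene. On the other side PFKFB3, which makes the main allosteric activator of phosphofructokinase, was 0.864-fold and ADM, the vasodilator peptide adrenomedullin, 0.882-fold. In the edgeR quasi-likelihood test with batch as a block none of the 32 genes passed, the lowest Benjamini-Hochberg adjusted p being 0.171, and 0% of all genes tested passed either. At an unadjusted p below 0.05 stood 6 of the 32 genes (ALDOC, BNIP3L, NDRG1, ENO2, PFKFB3 and PFKP), beside 15.4% of all genes. limma-voom with the block also called none. DESeq2 with the same block called 2 genes, ALDOC and BNIP3L, both higher, where 1.22% of all 19990 genes were called and 0.895% were called higher. DESeq2 gave no adjusted p for CA9, CA12 and EGLN3.

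ALDOC had 14.5, 17.0 and 17.8 CPM in the HIV-1+LTA libraries of batches 1, 2 and 3, 12.9, 11.0 and 10.6 CPM in the HIV-1 libraries, and 13.7, 12.7 and 10.5 CPM in the PBS libraries. Every HIV-1+LTA library was above every library of both other groups. The mean was 16.5 ± 1.73 CPM in HIV-1+LTA, 11.5 ± 1.19 CPM in HIV-1 and 12.3 ± 1.67 CPM in PBS (SD, n = 3 each). Against HIV-1 the log2 fold change was 0.52 with an SE of 0.115 and an adjusted p of 0.171 in edgeR, and in DESeq2 it was 0.52 with an SE of 0.124 and an adjusted p of 0.00556. Over the fits of all libraries with another tool, scaling or filter or without the block, and the edgeR fits without a library or a batch, its adjusted p ran from 1.89e-05 to 1.00. The difference of log2 CPM between HIV-1+LTA and HIV-1 was 0.18 in batch 1, 0.63 in batch 2 and 0.75 in batch 3, so it was higher in 3 of 3 batches and smallest in batch 1. Leaving out each library in turn, DESeq2 called ALDOC in 5 of 9 fits, with adjusted p-values between 5.65e-07 and 0.757, and edgeR in 1 of 9, the fit without the HIV-1+LTA library of batch 1. In the GRCh37 annotation ALDOC lies on the minus strand of chromosome 17, from 26900133 to 26903966, where 1 uncharacterised gene overlaps it on the opposite strand. The strand setting of the counting is not given in the sources used here, so reads of such overlapping genes cannot be told apart.

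The 250 bases before the ALDOC start are shown because ALDOC was the gene furthest apart between HIV-1+LTA and HIV-1. They are from RefSeq on GRCh38.p14, chr17:28576896-28577145, minus strand, read 5′ to 3′ in the direction of the gene, and capitals mark ACGTG or GCGTG on either strand, the letters at the core of hypoxia response elements. Matches of the 2 motifs can overlap.
ALDOC: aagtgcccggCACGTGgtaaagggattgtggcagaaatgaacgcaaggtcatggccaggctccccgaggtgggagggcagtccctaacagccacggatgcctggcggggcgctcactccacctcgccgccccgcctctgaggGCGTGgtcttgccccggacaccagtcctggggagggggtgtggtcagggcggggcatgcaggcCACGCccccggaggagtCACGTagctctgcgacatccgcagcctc
This window holds 3 matches of ACGTG, counting both strands of its CACGTG, and 2 of GCGTG. At least 1 match of either motif is found in 43.2% of the 35116 RefSeq windows of this length. A match is a description of the letters and says nothing of binding.

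BNIP3L had 226, 236 and 247 CPM in the HIV-1+LTA libraries of batches 1, 2 and 3, 214, 196 and 196 CPM in the HIV-1 libraries, and 231, 220.1 and 209 CPM in the PBS libraries. The HIV-1+LTA libraries lay above all HIV-1 libraries and overlapped the PBS libraries. Against HIV-1 its log2 fold change was 0.23 with an SE of 0.0580 and an adjusted p of 0.171 in edgeR, while DESeq2 gave 0.23 with an adjusted p of 0.0329, in a range from 0.00175 to 1.00 over the same other fits, and called it in 3 of 9 fits that left out 1 library. NDRG1 had 39.7, 46.3 and 43.9 CPM in HIV-1+LTA libraries, 39.1, 32.5 and 39.5 CPM in HIV-1 libraries, and 40.5, 34.8 and 38.8 CPM in PBS libraries. The HIV-1+LTA libraries of NDRG1 were just above all HIV-1 libraries, and the largest within-batch difference, 0.51 on the log2 scale, was that of batch 2. NDRG1 had an adjusted p of 0.249 in edgeR and 0.178 in DESeq2, within a range from 0.00833 to 1.00 over the same other fits. ALDOC, BNIP3L and NDRG1 were the 3 genes whose HIV-1+LTA libraries all lay above the HIV-1 libraries, which held for 2.12% of all genes tested. BNIP3 itself, the paralog of BNIP3L, did not pass, with a log2 fold change of -0.00 (SE 0.0559, edgeR adjusted p 0.996). Its annotated pseudogenes hold 2.03% as many counts as BNIP3, the highest such share among the 14 genes with pseudogenes.

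**Figure D2:**
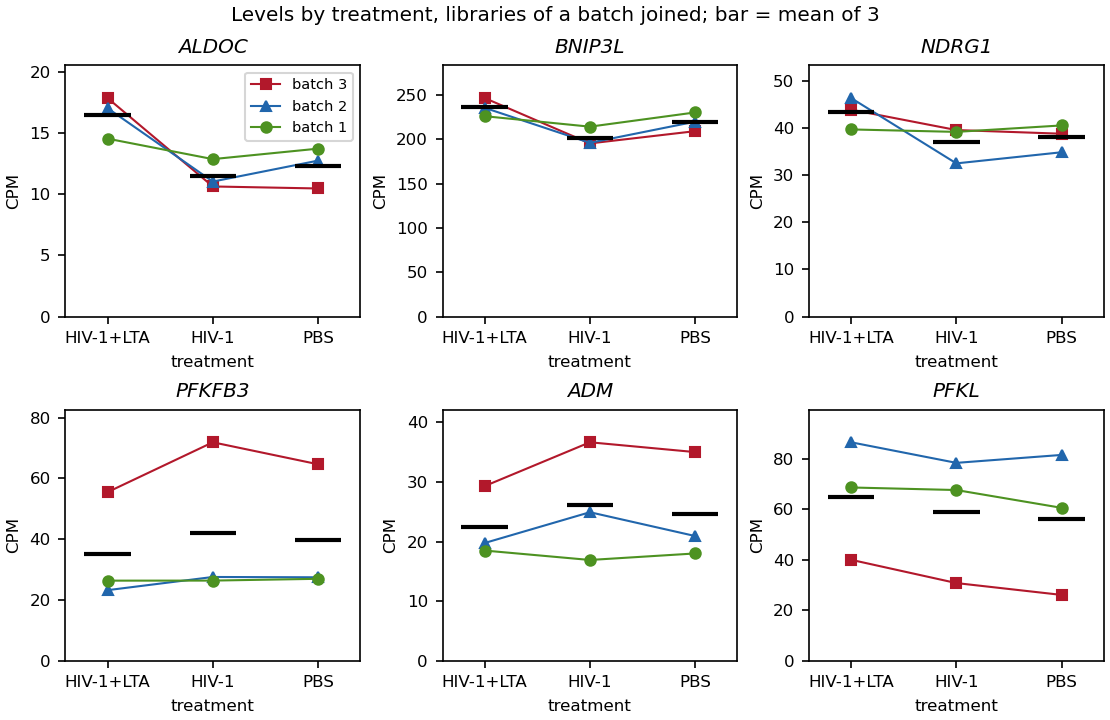
CPM (vertical axes, from 0) of 6 genes by treatment (horizontal axes), with the 3 libraries of a batch joined by a line and the mean of each treatment as a black bar. ALDOC is higher in the 3 HIV-1+LTA libraries than in any other, at 14.5 to 17.8 CPM, while PFKFB3, ADM and PFKL are set apart mainly by batch 3.

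PFKFB3 had 26.4, 23.2 and 55.5 CPM in HIV-1+LTA libraries of batches 1, 2 and 3, 26.4, 27.6 and 71.9 CPM in HIV-1 libraries, and 27.0, 27.5 and 64.7 CPM in PBS libraries. All groups overlapped, since batch 3 was high in each. Within batches the difference of log2 CPM between HIV-1+LTA and HIV-1 was -0.00 in batch 1, -0.25 in batch 2 and -0.37 in batch 3, and the fitted log2 fold change was -0.21 (SE 0.0694, edgeR adjusted p 0.219). ADM had 18.5, 19.8 and 29.3 CPM in HIV-1+LTA libraries, 16.9, 24.9 and 36.7 CPM in HIV-1 libraries, and 18.0, 20.9 and 35.0 CPM in PBS libraries. The groups of ADM overlapped as well, and its differences within batches 1, 2 and 3 were 0.13, -0.33 and -0.32, so batch 1 had the opposite sign. Its edgeR adjusted p was 0.349. Of the 32 genes, 7 were higher in HIV-1+LTA than in HIV-1 in all 3 batches (ALDOC, BNIP3L, NDRG1, PFKL, ENO2, SLC2A3 and PDK1), beside 16.7% of all genes. Another 6 were lower in all 3 batches (PFKFB3, PFKP, GAPDH, PGK1, ENO1 and P4HA2), beside 17.1% of all genes. The median log2 fold change of the 32 genes was -0.03, against -0.00 over all genes tested.

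Of the edgeR fits that left out 1 library, only the fit without the HIV-1+LTA library of batch 1 called any of these genes between HIV-1+LTA and HIV-1. Without that library, edgeR with the block called 8 genes, where 14.6% of all genes were called: ALDOC, NDRG1, BNIP3L, ENO2 and HIF1A higher, and PFKFB3, ADM and PFKP lower. Leaving out all of batch 1 gave 6 genes, beside 9.69% of all genes, and the fits without batch 2 or without batch 3 gave 0. Without the filter on low counts edgeR called 3 genes, ALDOC, NDRG1 and BNIP3L, where 1016 of all 25265 genes were called.

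Against PBS, HIV-1+LTA libraries gave much the same picture. The comparison shares its HIV-1+LTA libraries with the one against HIV-1. ALDOC was 1.34-fold higher, with a log2 fold change of 0.42 (SE 0.114, edgeR adjusted p 0.205), and its HIV-1+LTA libraries all lay above the PBS libraries, as was so for 2.06% of all genes. PFKL, the liver type of phosphofructokinase, was 1.22-fold higher (edgeR adjusted p 0.205), and LDHA was 0.896-fold (edgeR adjusted p 0.229). None of the 32 genes passed in edgeR, where 0% of all genes passed, and none in limma-voom, and 8 stood at an unadjusted p below 0.05 in edgeR, beside 16.8% of all genes. DESeq2 with the block called ALDOC alone, higher, with a log2 fold change of 0.41 (SE 0.123, adjusted p 0.0440), where 1.18% of all genes were called and 0.59% were called higher. The authors' deposited table has the same log2 fold change for ALDOC, 0.41, and the same adjusted p, 0.0440. That table names no comparison and was matched to this DESeq2 fit of the same counts, so it is no separate result. DESeq2 gave no adjusted p for CA9, CA12, EGLN3 and ANKRD37, and it called ALDOC in 2 of 9 fits that left out 1 library.

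PFKL had 68.7, 86.6 and 40.0 CPM in HIV-1+LTA libraries of batches 1, 2 and 3, 67.7, 78.4 and 30.8 CPM in HIV-1 libraries, and 60.6, 81.6 and 26.1 CPM in PBS libraries. The groups overlapped, and the within-batch differences between HIV-1+LTA and PBS were 0.18, 0.09 and 0.62 on the log2 scale. LDHA had 889, 686 and 769 CPM in HIV-1+LTA libraries, 856, 779 and 771 CPM in HIV-1 libraries, and 924, 801 and 883 CPM in PBS libraries. In each batch LDHA was lower in HIV-1+LTA than in PBS, with differences of -0.06, -0.23 and -0.20 on the log2 scale, and the groups overlapped. Higher in all 3 batches were 5 genes (ALDOC, PFKL, SLC2A1, KDM3A and ANKRD37), beside 17.5% of all genes, and lower in all 3 were 6 (PFKFB3, HK1, GAPDH, PGK1, ENO1 and LDHA), beside 16.4%. The median log2 fold change was -0.03 over the 32 genes and 0.00 over all genes. Without the HIV-1+LTA library of batch 1, edgeR called 8 genes against PBS, beside 16.2% of all genes: ALDOC, PFKL, NDRG1, P4HA1, ENO2 and BNIP3L higher, and PFKFB3 and LDHA lower. Without batch 1 it called 3, ALDOC, NDRG1 and P4HA1, all higher, beside 10.7% of all genes.

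HIV-1 alone left these genes close to PBS. None of the 32 passed in edgeR with the block, where 0% of all genes passed, none stood at an unadjusted p below 0.05, beside 4.21% of all genes, and limma-voom and DESeq2 with the block also called none, beside 0.015% of all genes in DESeq2. The log2 fold changes ran from -0.12 in BNIP3L to 0.25 in ANKRD37, an ankyrin repeat gene induced by HIF-1, and the lowest edgeR adjusted p was 0.946. ANKRD37 had 1.89, 2.395 and 0.660 CPM in the HIV-1+LTA libraries of batches 1, 2 and 3, 2.12, 2.53 and 0.381 CPM in the HIV-1 libraries, and 1.51, 2.27 and 0.400 CPM in the PBS libraries, with overlapping groups. ALDOA had 115, 146 and 77.4 CPM in HIV-1 libraries, against 103, 131 and 67.6 CPM in PBS libraries, so it was higher within each batch while the groups overlapped (0.17, SE 0.0913). The median was -0.01, against -0.00 over all genes. No gene had groups that did not overlap, where 1.54% of all genes had all HIV-1 libraries above and 1.19% below all PBS libraries. Higher in all 3 batches were ALDOA, SLC2A1 and P4HA1, beside 16.3% of all genes, and lower in all 3 were 8 genes, beside 17.1%.

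**Figure D3:**
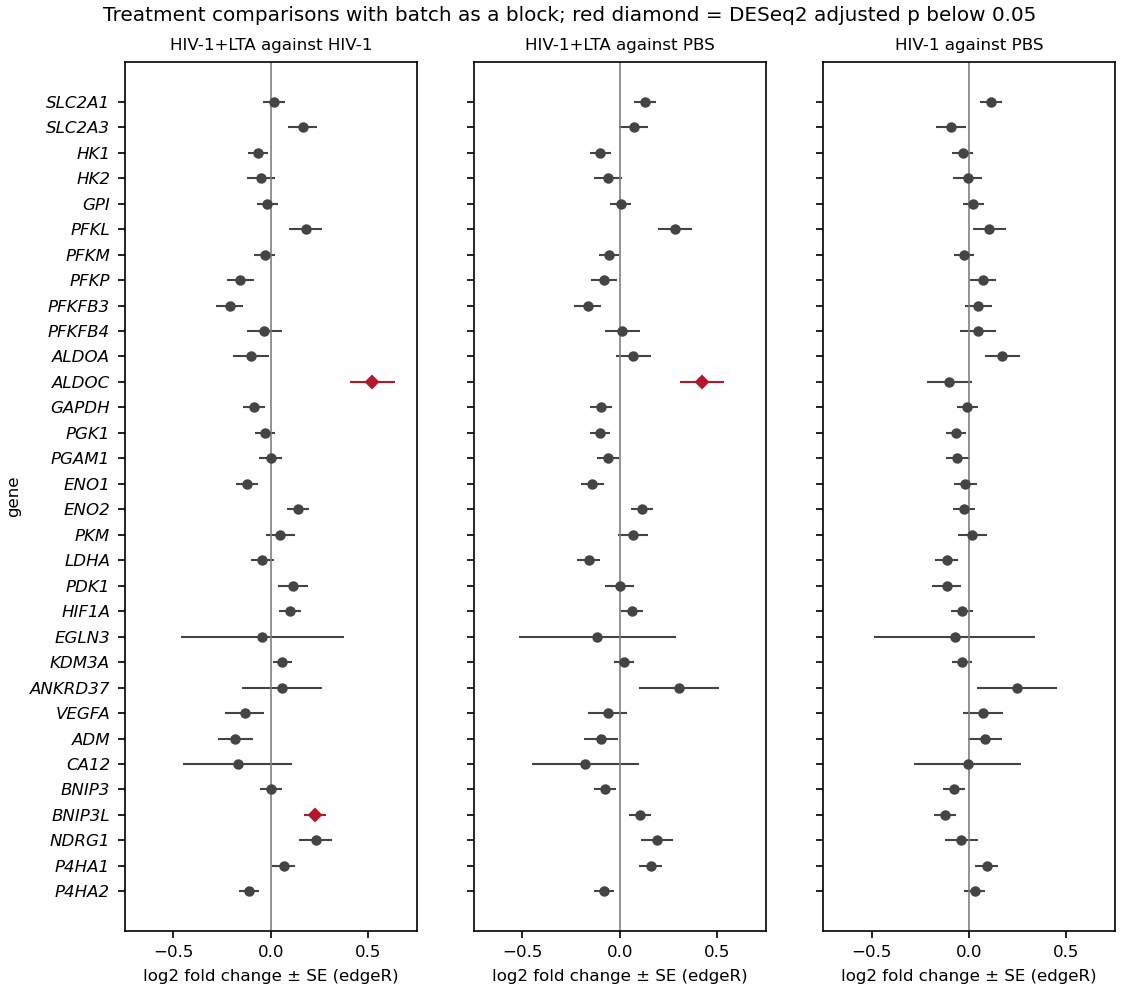
Log2 fold change with its SE (horizontal axes) of the 32 tested genes (rows) in the 3 treatment comparisons, from the edgeR fit with batch as a block. Red diamonds mark the genes that DESeq2 with the block called, namely ALDOC in both comparisons of HIV-1+LTA and BNIP3L in the one against HIV-1. The other values lie between -0.21 and 0.30.

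HIF1A and the angiogenic and transporter genes often read as signs of hypoxia did not pass by treatment in the fits of all 9 libraries. HIF1A had 446, 469 and 553 CPM in HIV-1+LTA libraries of batches 1, 2 and 3, 453, 412 and 508 CPM in HIV-1 libraries, and 470.1, 419 and 517 CPM in PBS libraries, with 2 annotated antisense genes overlapping it. VEGFA, the main angiogenic growth factor, had 18.3, 21.0 and 17.8 CPM in HIV-1+LTA libraries, 18.5, 19.3 and 25.4 CPM in HIV-1 libraries, and 19.1, 19.5 and 21.3 CPM in PBS libraries. For both genes the groups overlapped, and the edgeR adjusted p of HIV-1+LTA against HIV-1 was 0.430 for HIF1A and 0.552 for VEGFA. SLC2A1, the glucose transporter GLUT1, had 62.0, 65.0 and 40.6 CPM in HIV-1+LTA libraries, 61.0, 59.5 and 43.6 CPM in HIV-1 libraries, and 57.4, 57.7 and 37.8 CPM in PBS libraries. It was higher in HIV-1+LTA than in PBS in 3 of 3 batches, by 0.10 to 0.17 on the log2 scale, and its edgeR adjusted p was 0.272. CA12 had 0.625, 0.648 and 0.454 CPM in HIV-1+LTA libraries, 0.823, 0.567 and 0.588 CPM in HIV-1 libraries, and 0.844, 0.482 and 0.680 CPM in PBS libraries. Its groups overlapped, and with an SE of 0.280 on the log2 scale only large differences could be seen.

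The batches differed far more than the treatments. Of the 32 genes 25 passed between batch 3 and batches 1 and 2 in edgeR with treatment in the model, which is 78.1% of them, beside 71.2% of all genes. The share is close to the background, so the number itself is no result about hypoxia or glycolysis genes. Higher in batch 3 were 15 genes, beside 35.2% of all genes, and lower were 10, beside 36%. The median log2 fold change of the 32 genes was 0.12, against -0.01 over all genes. DESeq2 called 23 of them, beside 55.7% of all genes. In 14 genes all 3 libraries of batch 3 were above the other 6, beside 30.6% of all genes, and in 9 all 3 were below, beside 30.2%. Batch 3 is 1 batch, so these tests measure the spread of libraries within batches and not that between batches.

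**Figure D4:**
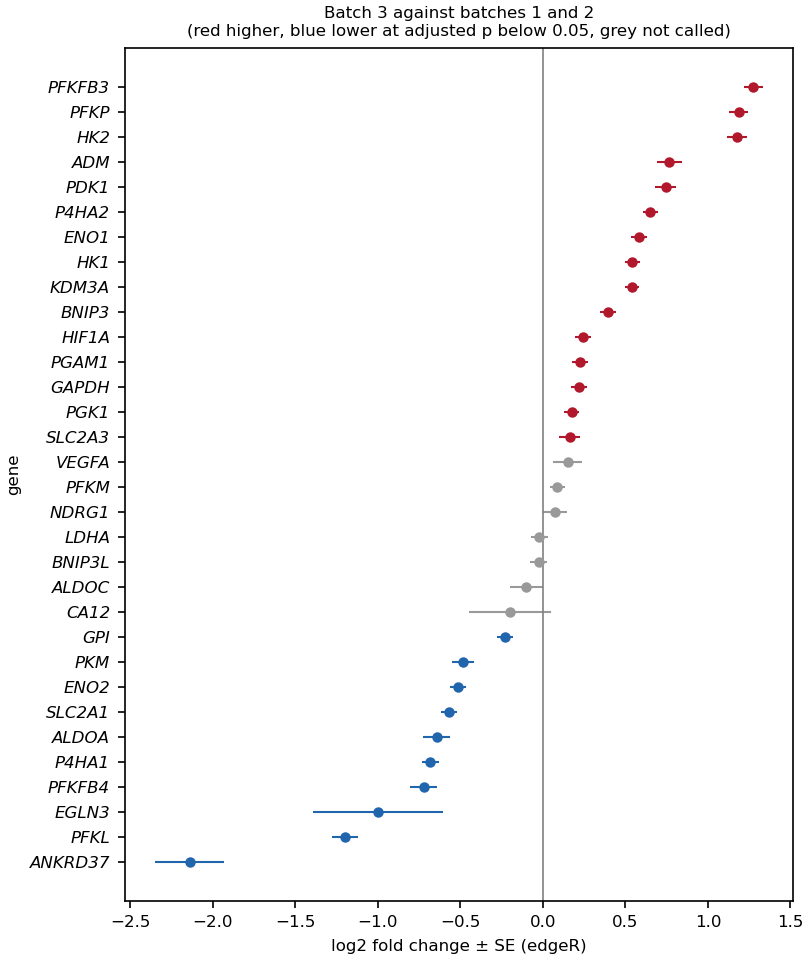
Log2 fold change with its SE (horizontal axis) of the 32 tested genes (rows, sorted) between batch 3 and batches 1 and 2, from the edgeR fit with treatment in the model. Values run from -2.14 in ANKRD37 to 1.28 in PFKFB3, with 15 genes called higher (red), 10 called lower (blue) and 7 not called (grey).

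Among the regulators of glycolytic flux the changes ran both ways. PFKFB3 had 55.5, 71.9 and 64.7 CPM in the HIV-1+LTA, HIV-1 and PBS libraries of batch 3, against a lowest, median and highest of 23.2, 26.7 and 27.6 CPM in the 6 libraries of batches 1 and 2. It rose by 1.28 on the log2 scale (SE 0.0576, edgeR adjusted p 2.93e-09). PFKFB4, its testis-type paralog had 9.57, 8.77 and 7.74 CPM in batch 3, against 13.5, 14.2 and 15.3 CPM in batches 1 and 2. PFKFB4 fell by 0.72. Neither paralog overlapped between batch 3 and the other batches. The phosphofructokinases split the same way: PFKP, the platelet type, had 188, 205 and 207 CPM in batch 3, against 77.3, 84.3 and 104 CPM, and rose by 1.19, while PFKL had 40.0, 30.8 and 26.1 CPM, against 60.6, 73.6 and 86.6 CPM, and fell by 1.20. PFKM, the muscle type, did not pass (0.09, SE 0.0452, edgeR adjusted p 0.109).

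HK2, the inducible hexokinase bound to mitochondria, had 125, 125 and 117 CPM in the HIV-1+LTA, HIV-1 and PBS libraries of batch 3, against a lowest, median and highest of 47.5, 55.3 and 58.5 CPM in batches 1 and 2. It rose by 1.18 and HK1, the hexokinase of most tissues, by 0.54. PDK1, a kinase that inhibits pyruvate dehydrogenase, had 30.5, 27.0 and 30.4 CPM in batch 3, against 16.3, 17.4 and 19.4 CPM in batches 1 and 2, and rose by 0.74. None of the 3 genes overlapped between batch 3 and the other batches. PDK1 is overlapped by an antisense gene. Of the transporters SLC2A1 fell by 0.57 and SLC2A3, the high-affinity transporter GLUT3, rose by 0.16 (edgeR adjusted p 0.0425), a call that DESeq2 did not share (adjusted p 0.0577).

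In the later steps of the pathway ENO1 rose by 0.58, and GAPDH, PGK1 and PGAM1, the enzymes between aldolase and enolase, by 0.17 to 0.22. ENO2, the neuronal enolase, fell by 0.51, ALDOA, the main aldolase of the line, by 0.64, PKM by 0.48 and GPI, which turns glucose 6-phosphate into fructose 6-phosphate, by 0.23. ALDOA had 84.1, 77.4 and 67.6 CPM in batch 3, against a lowest of 103 and a highest of 146 CPM in batches 1 and 2, and did not overlap. LDHA did not pass (-0.02, SE 0.0510, edgeR adjusted p 0.704), nor did ALDOC (-0.10, SE 0.100, edgeR adjusted p 0.390), BNIP3L, NDRG1, VEGFA and CA12. ALDOC, BNIP3L and NDRG1, the genes with HIV-1+LTA libraries all above the HIV-1 libraries, were among the 7 genes not called between batches. That criterion pools the batches, so a gene with a large batch difference can hardly meet it. The coincidence is therefore no separate result. In edgeR ALDOC did pass, at -0.19, when the HIV-1+LTA library of batch 1 was left out, and NDRG1, at 0.14, and PFKM when that of batch 2 was. DESeq2 called neither ALDOC nor NDRG1 in any of the 9 fits that left out 1 library. VEGFA passed in edgeR, at 0.20 and 0.28, without the HIV-1+LTA library of batch 2 and without that of batch 3, and in DESeq2 in 1 of 9 fits.

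Of the genes known as HIF targets outside glycolysis, ANKRD37 had 0.660, 0.381 and 0.400 CPM in the HIV-1+LTA, HIV-1 and PBS libraries of batch 3, against a lowest, median and highest of 1.51, 2.20 and 2.53 CPM in batches 1 and 2. It fell by 2.14 (SE 0.209, edgeR adjusted p 1.92e-06), the largest change among the 32 genes, with UFSP2 overlapping it on the opposite strand. EGLN3 had 0.144, 0.260 and 0.140 CPM in batch 3, against 0.193, 0.395 and 0.450 CPM, and overlapped. Its fall of 1.00 passed in edgeR (adjusted p 0.0386) and not in DESeq2 (adjusted p 0.0837). The adjusted p of EGLN3 ran from 0.0128 to 0.190 over the other fits of this contrast, all of them with the block and with every batch. In edgeR it was called in 2 of 9 fits that left out 1 library. ADM rose by 0.77, BNIP3 by 0.39, KDM3A, a histone demethylase induced by HIF-1, by 0.54, and HIF1A by 0.24. These 4 genes had all 3 libraries of batch 3 above the other 6.

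Collagen prolyl 4-hydroxylase, which stabilises the collagen triple helix, has alpha subunits from paralogous genes that moved apart between the batches. P4HA1 had 59.3, 53.9 and 48.4 CPM in the HIV-1+LTA, HIV-1 and PBS libraries of batch 3, against a lowest, median and highest of 74.8, 88.8 and 92.9 CPM in batches 1 and 2, and fell by 0.68. P4HA2 had 282, 323 and 325 CPM in batch 3, against 186, 196 and 211 CPM, and rose by 0.65. Neither overlapped between batch 3 and the other batches, and each has a gene annotated on the opposite strand. The sum of the stellate cell markers was also higher in batch 3, at 7992 to 9870 CPM against 4677 to 6433 CPM. Such a sum is set mostly by the abundant markers and does not show that each marker was higher. The part of these markers in the values of P4HA1 and P4HA2 was not tested.

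The windows of the genes with the strongest fall and of this opposed pair are shown to compare their letters. All are the 250 bases before the start from RefSeq on GRCh38.p14, read 5′ to 3′ in the direction of the gene, with ACGTG or GCGTG on either strand in capitals. ANKRD37 is at chr4:185396591-185396840 on the plus strand, P4HA1 at chr10:73096867-73097116 and P4HA2 at chr5:132227092-132227341, both on the minus strand.
ANKRD37: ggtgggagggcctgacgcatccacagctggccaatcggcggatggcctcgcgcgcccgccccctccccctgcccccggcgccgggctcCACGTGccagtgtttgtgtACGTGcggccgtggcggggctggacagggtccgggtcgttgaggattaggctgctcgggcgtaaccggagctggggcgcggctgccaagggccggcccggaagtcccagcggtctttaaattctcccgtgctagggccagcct
P4HA1: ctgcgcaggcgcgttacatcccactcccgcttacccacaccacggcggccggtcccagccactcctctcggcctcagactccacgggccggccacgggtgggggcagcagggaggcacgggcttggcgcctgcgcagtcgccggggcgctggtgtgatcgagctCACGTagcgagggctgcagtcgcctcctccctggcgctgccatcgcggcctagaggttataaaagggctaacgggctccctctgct
P4HA2: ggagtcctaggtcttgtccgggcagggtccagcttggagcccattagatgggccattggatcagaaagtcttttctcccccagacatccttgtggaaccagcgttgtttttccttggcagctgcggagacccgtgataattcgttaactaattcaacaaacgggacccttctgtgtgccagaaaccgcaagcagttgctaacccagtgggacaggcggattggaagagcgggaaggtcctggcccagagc
ANKRD37 has 3 matches of ACGTG, counting both strands of its CACGTG, and P4HA1 has 1, while P4HA2 has neither motif in this window. Of the 33 genes 29 were found in the RefSeq promoter table, with 52 starts. BNIP3L, NDRG1, SLC2A3 and VEGFA were not matched. Of the 52 windows of 250 bases, 31 hold ACGTG or GCGTG, which is 59.6%, against 43.2% of all windows. Over 250 bases before to 50 after each start the share was 67.3%, against 48.4% of all windows. Counted by gene over that longer window, 26 of the 29 genes have a match at some start, against 52.4% of 27305 genes. Genes with more starts have more chances of a match, and these shares are descriptions without a test.

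Because paralogs moved apart or, as HK1 and HK2, rose by unequal amounts, the make-up of several steps differed between batches. It is given as the share of RPKM within a step. Genes annotated on the same strand overlap PFKP and ALDOA, and their part in these shares was not tested. PFKP held 63.7 ± 1.98% of phosphofructokinase transcripts in batch 3 (SD, n = 3), against 37.5 ± 2.52% in batches 1 and 2 (SD, n = 6). PFKL held 9.35 ± 2.27% in batch 3, against 28.4 ± 2.46%. PFKFB3 held 85.0 ± 2.71% of the sum of PFKFB3 and PFKFB4, against 58.9 ± 1.39%, HK2 18.7 ± 0.934% of HK1 and HK2, against 12.9 ± 0.571%, and P4HA2 77.6 ± 3.08% of P4HA1 and P4HA2, against 58.0 ± 1.82%. SLC2A3 held 52.8 ± 2.28% of the sum with SLC2A1 in batch 3, against 40.2 ± 2.27%. Of all single genes tested, 30.6% had batch 3 above and 30.2% had it below all other libraries, and other paralog pairs were not counted. In none of these steps did batch 3 overlap the other batches. In aldolase it did: ALDOC held 12.3% to 17.8% in batch 3, against 7.14% to 13.7% in batches 1 and 2. The sum of the 15 glycolytic enzymes, 0.946% to 1.00% of counts in batch 3, against 0.938% to 1.05% in batches 1 and 2, did overlap.

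**Figure D5:**
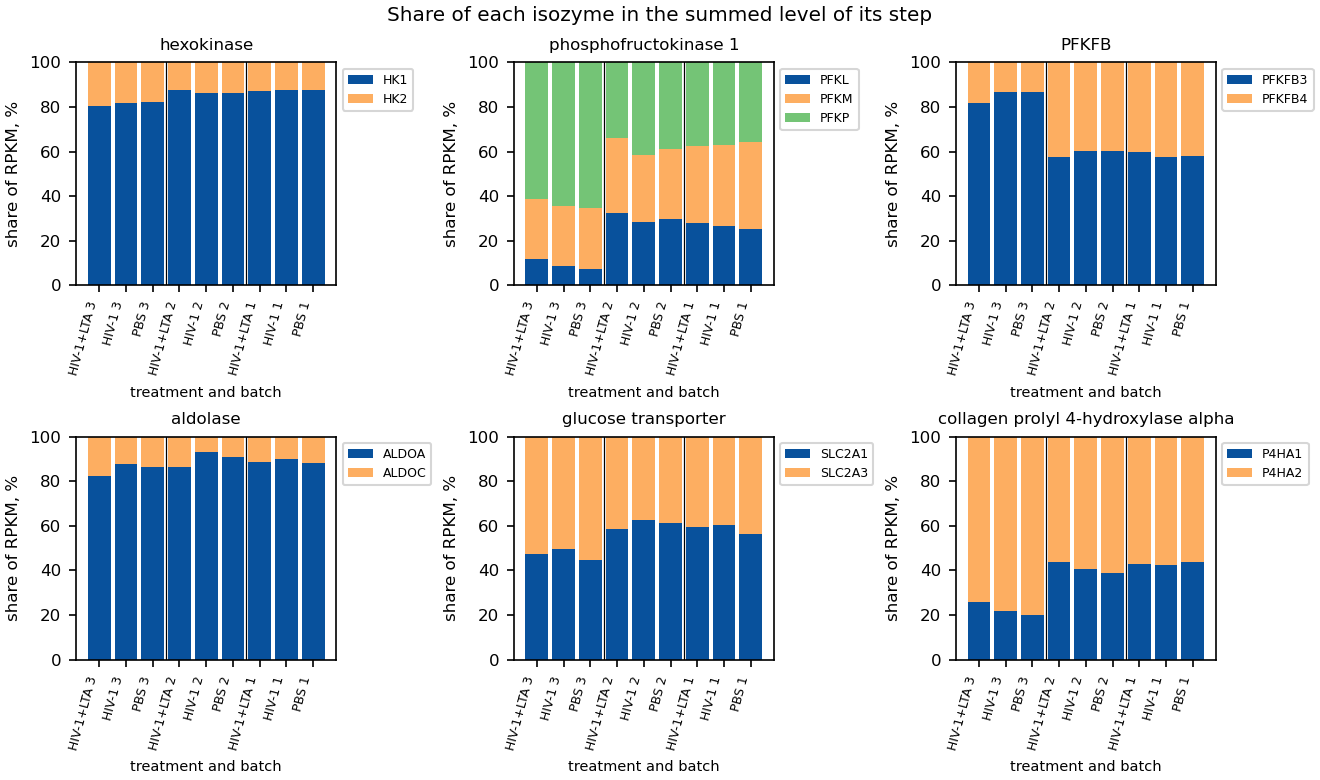
Share of each gene in the summed RPKM of its step (vertical axes, percent) in the 9 libraries (horizontal axes, batch 3 at the left). In batch 3 the shares of PFKP, PFKFB3, HK2, SLC2A3 and P4HA2 are larger than in batches 2 and 1, and that of PFKL is smaller, at 7.46% to 11.9% against 25.4% to 32.5%.

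Between batch 2 and batch 1 none of the 32 genes passed in edgeR, beside 0.031% of all genes, and 10 stood at an unadjusted p below 0.05, beside 11.6% of all genes. DESeq2 called LDHA alone, lower by 0.26 on the log2 scale (adjusted p 0.00979), where 0.525% of all genes were called and 0.135% were called lower. LDHA was 889, 856 and 924 CPM in batch 1, above the 686, 779 and 801 CPM of the same treatments in batch 2. DESeq2 called it in 5 of 9 fits that left out 1 library, with adjusted p-values between 0.00640 and 0.818, and edgeR in 0 of 9.

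The other genes of these pathways were taken in 7 lists that do not overlap the 33. In edgeR with the block no gene of any list passed in a treatment comparison. By DESeq2 with the block, of 35 other hypoxia-induced genes 3 rose in HIV-1+LTA against HIV-1: ZNF395, a transcription factor (0.59, adjusted p 0.00143), CCNG2, an atypical cyclin (0.41, adjusted p 0.00956), and MXI1, an antagonist of MYC (0.35, adjusted p 0.0297). Of all genes DESeq2 called 1.22% in this comparison and 0.895% higher. The median of the list over the tested genes was 0.01. ZNF395 had 28.3, 39.4 and 18.3 CPM in the HIV-1+LTA libraries of batches 1, 2 and 3, against 26.0, 21.6 and 10.9 CPM in HIV-1 libraries, so it was higher in each batch while the groups overlapped. CCNG2 had 75.1, 98.8 and 78.5 CPM in HIV-1+LTA libraries, against 76.9, 62.2 and 52.4 CPM in HIV-1 libraries. In batch 1 CCNG2 was therefore not higher. Against PBS, LOX, a collagen cross-linking oxidase, fell (-0.33, adjusted p 0.0353), and BSG, the chaperone of lactate transporters, was the 1 gene of 16 on pyruvate and lactate fate that rose (0.29, adjusted p 0.0264), where DESeq2 called 1.18% of all genes. LOX had 146, 122 and 948 CPM in the HIV-1+LTA libraries of batches 1, 2 and 3, against 139, 193 and 1236 CPM in the PBS libraries, so batch 1 ran the other way. Of 19 other glycolytic genes and isozymes, 16 on HIF subunits and oxygen sensing, 13 on hexose transport and glycogen, 7 of the pentose phosphate pathway and 7 of gluconeogenesis, DESeq2 called none in a treatment comparison.

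Between batch 3 and batches 1 and 2 edgeR called 71.2% of all genes, 35.2% higher and 36% lower, and the counts of these lists are given beside that background as a description. Of 34 tested hypoxia-induced genes 15 rose and 13 fell, and of 15 HIF and oxygen sensing genes 6 rose and 5 fell. AK4, a mitochondrial adenylate kinase, had 0.268, 0.225 and 0.160 CPM in the HIV-1+LTA, HIV-1 and PBS libraries of batch 3, against a lowest, median and highest of 10.1, 13.8 and 15.0 CPM in batches 1 and 2, and fell by 5.89. IGFBP3, which binds insulin-like growth factors, rose by 3.76 and LOX by 2.86. EPAS1, the gene of HIF-2alpha, rose by 1.09, while VHL, the ubiquitin ligase subunit that marks HIF for destruction, fell by 0.87. Of the other lists 6 of 11 glycolytic genes rose and 3 fell, 4 of 16 on pyruvate and lactate rose and 7 fell, 7 of 13 on hexose transport and glycogen rose and 5 fell, 2 of 7 of the pentose phosphate pathway rose and 4 fell, and of 3 of gluconeogenesis 1 rose and 1 fell.

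The study also has ChIP-seq of 1 HIV-1 library, whose deposited list of 166 peaks gives positions and no values. The antibody is not given in the sources used here, the cell line named in the ChIP labels differs from that in their titles, and no comparison with PBS was made. Of the 33 genes 1 had a peak within 5000 bases. It lay before GAPDH, at chr12:6642788-6643010 of GRCh37, 223 bases long, and ended 668 bases before the annotated start of the gene on the plus strand. No annotated gene overlaps the peak. Its sequence is shown on the plus strand, as the 1 peak near these genes, from the GRCh37 reference, and has a GC content of 65.9%.
GAPDH peak: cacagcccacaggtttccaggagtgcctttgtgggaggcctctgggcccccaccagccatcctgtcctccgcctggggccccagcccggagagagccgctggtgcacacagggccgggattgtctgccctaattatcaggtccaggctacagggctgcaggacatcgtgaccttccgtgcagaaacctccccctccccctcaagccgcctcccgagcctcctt
GAPDH mRNA was 3466, 3148 and 3931 CPM in HIV-1+LTA libraries of batches 1, 2 and 3, 3572, 3482 and 4146 CPM in HIV-1 libraries, and 3638, 3555 and 4051 CPM in PBS libraries. The groups overlapped, and the log2 fold change of HIV-1 against PBS was -0.01 (SE 0.0561, edgeR adjusted p 0.992).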

How the data were processed

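Raw counts of 9 LX-2 libraries were used. Per the submitters' processing notes, the tools were fastp, STAR, HTSeq, SAMtools, Bowtie2, bedtools and deepTools, with hg19 (GRCh37), and the series' design text adds that MACS called the peaks. Versions and the strand setting are not given in the sources used here. The authors deposited whole-number counts per gene symbol. The authors' deposited table from DESeq2 holds a mean signal (scaled counts), a log2 fold change with its SE, a Wald score and a p-value before and after adjustment. It names no comparison. All 19990 of its log2 values lay within 0.01 of a DESeq2 fit of HIV-1+LTA against PBS with batch and group. The deposited peak list has positions only.

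Of 35303 genes 25265 had a count, and filterByExpr with the groups kept 16117. The test was edgeR 4.0.16 (R 4.3.3), quasi-likelihood, TMM, with group and batch in 1 fit of all 9 libraries and Benjamini-Hochberg adjustment over all genes, called below 0.05. It was also run on counts simulated with the same spread for all genes. The pass mark of that run covered only fold changes larger than those of these genes by treatment. It therefore does not show how often changes as small as these would be found. The SE is the log2 fold change divided by the square root of F. Batch contrasts came from the same fit. Log2 CPM used a prior count of 2. Alternatives were the fit without the block, DESeq2 1.42.0 (total count of at least 10) and limma-voom (limma 3.58.1) with the block, RLE scaling, no filter, and leaving out each library or batch. DESeq2 without each library or batch was added after seeing the data. Fits without the block or without a batch covered the treatment comparisons only. The labels give the batch, which pairs the libraries: deviations from group means correlated at 0.817 to 0.983 within batches and -0.942 to 0.894 between them (9319 genes of at least 10 CPM).

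RPKM used the canonical transcript of GENCODE on GRCh37. In that annotation genes on the same strand overlap 5 of the 33 genes, GPI, PFKP, ALDOA, NDRG1 and HIF1A. Their part in the counts was not tested. Promoters were matched by symbol in RefSeq on GRCh38.p14, whose coordinates are not mixed with those of GRCh37. The genes and lists were chosen with earlier results of these data known. The genes named were those called by treatment, the 2 highest and 2 lowest in each treatment comparison, the 5 highest and 5 lowest between batches, with the values of batches 1 and 2 as lowest, median and highest or as a range, and HIF1A, CA9, VEGFA, SLC2A1 and LDHA. GAPDH was added for its peak. Other lists name at most 3 genes each. Floors cover counting error only.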

Additional observations from a re-analysis of the deposited data

How the results depend on the processing

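No called result turned its direction. Genes called stood at 0 in edgeR for HIV-1+LTA against HIV-1, HIV-1+LTA against PBS and HIV-1 against PBS, at 11478 for batch 3 and at 5 for batch 2 against batch 1. Among treatments, DESeq2 with the block called 244, 236 and 3, edgeR without the filter 1016, 1045 and 30, edgeR without batch 1 1567, 1733 and 5, and DESeq2 without batch 1 1385, 1602 and 46. DESeq2 without batch 3 called 1 gene in each of the first 2 comparisons. For the 33 genes these settings gave 2, 1 and 0 calls (DESeq2), 3, 2 and 0 (no filter), 6, 3 and 0 (without batch 1) and 6, 4 and 0 (DESeq2 without batch 1). Without the replicate block edgeR called 0 genes and 0 of the 33 in each treatment comparison, as with it. Between batch 2 and batch 1, DESeq2 called 105 genes and 1 of the 33, limma-voom 8 genes, and edgeR without the filter 332 genes and 3 of the 33.

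Leaving out 1 library, edgeR called 0 to 2390, 0 to 2648 and 0 to 2 genes and 0 to 8, 0 to 8 and 0 of the 33 by treatment, and 1 to 214 genes and 0 to 3 of the 33 in batch 2 against batch 1. DESeq2 called 0 to 2108, 0 to 2419 and 0 to 22 genes and 0 to 8, 0 to 10 and 0 of the 33 by treatment, and 6 to 272 genes and 0 to 4 of the 33 in batch 2 against batch 1. The highest came without the HIV-1+LTA library of batch 1, or, for HIV-1 against PBS, without the PBS library of batch 1. In batch 3 against batches 1 and 2 edgeR called 22 to 27 of the 33. The cause was not tested. Of the values of single genes, 1312 kept their direction and their side of the threshold, 100 turned their direction while called in neither, 43 passed only under another setting and 8 passed only in the first.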

Other observations

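The values of 2 contrasts that share no library ran against each other. On the log2 CPM scale, the PBS library of batch 3 minus the mean of the PBS libraries of batches 1 and 2 was set beside the HIV-1+LTA minus the HIV-1 library of batch 3. Of the 32 genes 24, or 75%, had opposite signs, against 56.7% of all 16117 genes tested. Some of the differences between HIV-1+LTA and HIV-1 were near 0, such as -0.00138 in PGK1 and -0.00258 in KDM3A. The same differences within batches 1 and 2 were not set beside the batch contrast. Spearman's rho across genes was -0.48 over the 32 genes and -0.17 over all genes. These values are a description across genes, which are not independent replicates, of contrasts of 3 and 2 libraries.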
